A study of Homo sapiens with 8 samples.

Results

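The enzymes described here convert steroids within target tissues or clear them, and 10 genes were listed for them: the 5α-reductases SRD5A1, SRD5A2 and SRD5A3, the aldo-keto reductases AKR1C1, AKR1C2 and AKR1C3, the 17β-hydroxysteroid dehydrogenases HSD17B4, HSD17B6 and HSD17B10, and the cytochrome P450 CYP3A5. Their probes were found through the RefSeq accession of each probe. Of the 10 genes 9 had a matched probe, with 11 probes in all, among 28850 genes and 35514 probes tested. No probe's accession matched AKR1C2, so it has no value here. LNCaP, a cell line grown from a human prostate cancer metastasis, was kept in RPMI-1640 with 10% fetal bovine serum and transfected in oligofectamin with 30 nM of an siRNA against GATA2 (siGATA2) or of a scrambled siRNA (siControl). Total RNA taken after 72 h was labelled with Cy3 and hybridised to one-colour Agilent arrays, 4 per group, described as biological replicates of this 1 line. The p-values measure the spread between the 4 arrays per group, taken as independent cultures. For several genes, GATA2 among them, siGATA2 arrays 1 and 2 read alike and apart from siGATA2 arrays 3 and 4. Whether the 4 arrays of a group are independent was not tested. The question the comparison addresses is which genes change when the transcription factor GATA2 is silenced.

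Androgen made by the testis or the adrenal gland is remodelled inside prostate cells before it acts. 5α-reductases turn testosterone into the more potent dihydrotestosterone, AKR1C and HSD17B enzymes reduce or oxidise the steroid at its 3 and 17 positions and so raise or lower its activity, and CYP3A enzymes hydroxylate testosterone for disposal. Several of these enzymes also have work outside the androgen pathway, in N-glycosylation, in peroxisomal lipid oxidation or in mitochondria.

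All values are processed signals from the scanner software on the log2 scale after quantile normalization over the 8 arrays. A log2 fold change is the mean of the arrays labelled siGATA2 minus the mean of the arrays labelled siControl, and a gene was called at an adjusted p under 0.05 in a limma fit over all genes. GATA2 itself, read by a single probe, was not lower on the arrays labelled siGATA2. It stood at 12.61, 12.54, 11.57 and 11.40 on these arrays against 11.74, 11.28, 11.10 and 11.29 on the arrays labelled siControl, a log2 fold change of 0.68 (SE 0.312, limma adjusted p = 0.154, exact two-sided permutation p = 0.143). Each direction given here therefore rests on the array labels. Probes well above background numbered 24072 to 36735 per array, fewest on siControl arrays 1 (28305) and 3 (24072), where negative control spots scattered most, with an SD of 4.49 and 7.26 in units of intensity (1.78 to 2.40 elsewhere). The E1A spike-in RNA read 11.13 on siControl array 1 and 13.45 to 13.83 on the others, and no spot was saturated. The arrays shared 1 slide, whose first row held siGATA2 arrays 1, 2 and 3 with siControl array 4 and whose second row held the other 4. The sample titles carry letters whose meaning is not given, A, B, E and F for the siGATA2 arrays and B, D, F and G for the siControl arrays. Of 12 luminal prostate markers all 12 were well above background on all 8 arrays, with 7 called lower and 1 higher, where 14.2% and 12.3% of all genes were. Their mean level was 13.59 to 14.28 on the arrays labelled siGATA2 and 14.68 to 14.81 on those labelled siControl.

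Of the 9 enzymes 3 were called lower on the arrays labelled siGATA2, SRD5A3, HSD17B6 and HSD17B10, against 14.2% of all genes called lower. One was called higher, CYP3A5, against 12.3% of all genes, and 5 were not called. With a fold of at least 2 required as well, SRD5A3 was lower (background 7.13%) and CYP3A5 was higher (background 4.52%). Counted by probe, 3 of 11 were lower and 1 higher, against 14.5% and 12.5% of all probes. The groups did not overlap for 4 of the 9 genes, against 32.6% of all genes. The median log2 fold change was -0.46 over the 9 genes and 0.09 over all genes. The former is the value of a single gene, AKR1C3, which was not called and varied widely within both groups. These counts depend on scaling: with the arrays scaled to the E1A spike-in the median of all genes moved to -0.43, the calls over all genes went from 4086 lower and 3558 higher to 1901 lower and 138 higher, and SRD5A3 and CYP3A5 stayed called while HSD17B6 and HSD17B10 did not. In RNA from whole cultures, fewer cells that carry a transcript and less of it per cell cannot be told apart.

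**Figure D1:**
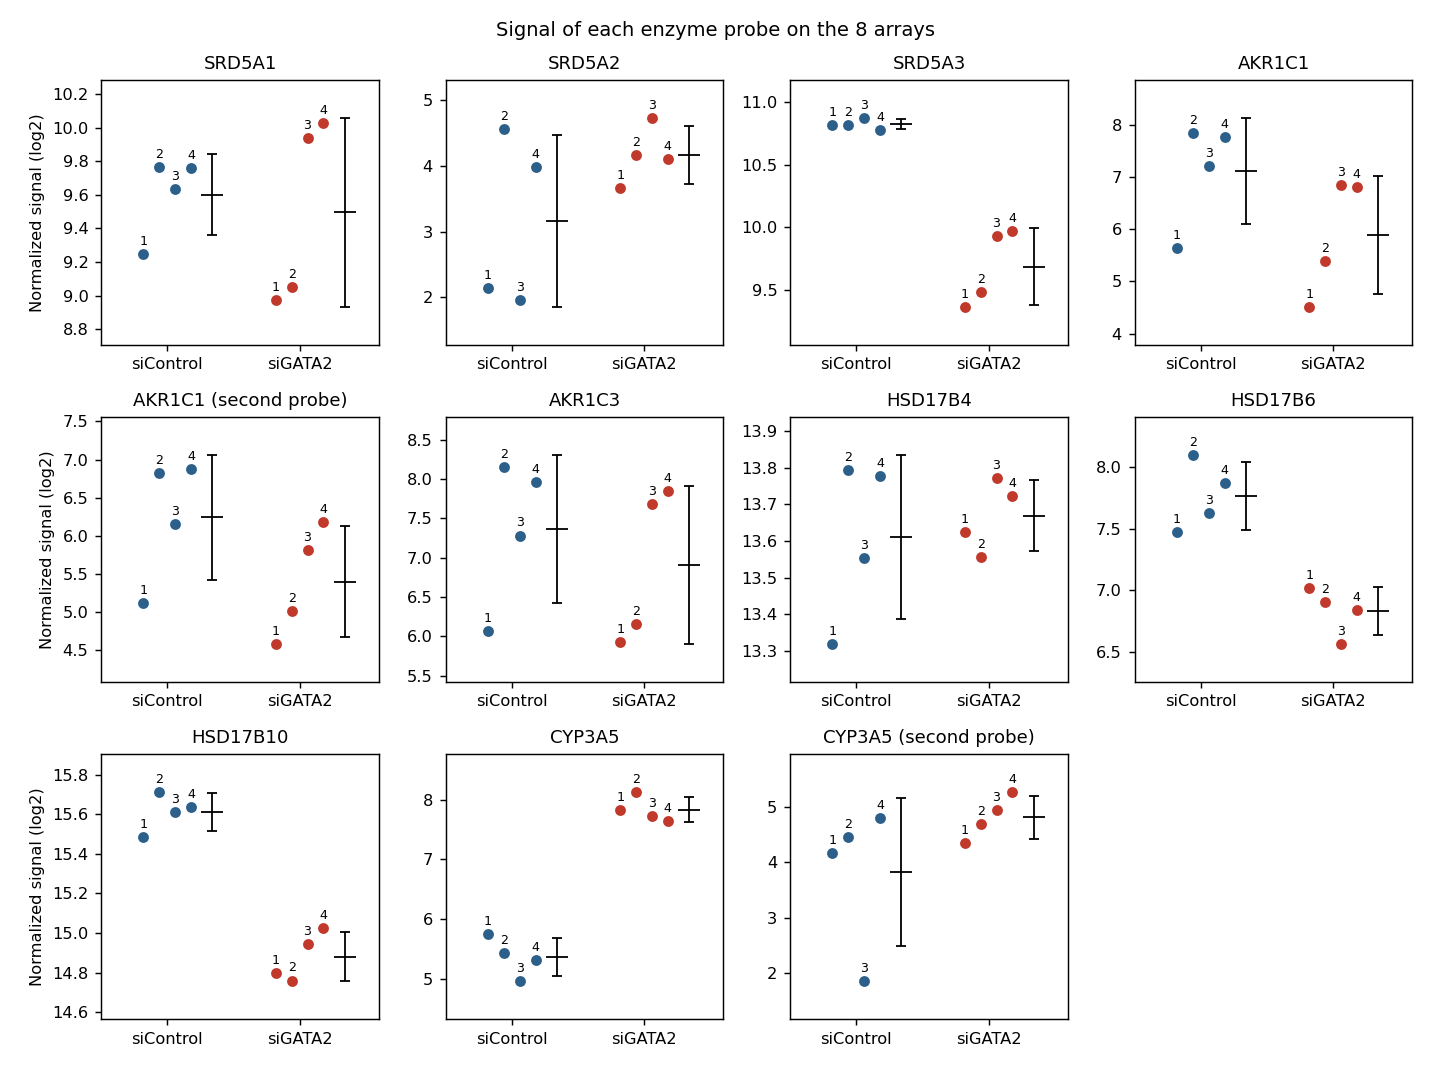
Normalized log2 signal of the 11 probes on each array, with siControl arrays in blue and siGATA2 arrays in red, the array number beside each point, and the mean with its standard deviation (n = 4) in black. The groups separate for SRD5A3, HSD17B6, HSD17B10 and the first CYP3A5 probe. AKR1C1, AKR1C3 and SRD5A1 were lower on siGATA2 arrays 1 and 2 than on siGATA2 arrays 3 and 4. Among the called genes SRD5A3 and HSD17B10 were so too, by less.

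Among the 5α-reductases, SRD5A3 fell and the classical enzymes SRD5A1 and SRD5A2 were not called. SRD5A3 is named for its sequence kinship with the steroid 5α-reductases and also reduces polyprenol to dolichol, the lipid that carries sugars in N-glycosylation. Its signal was 9.37, 9.48, 9.93 and 9.97 on siGATA2-labelled arrays 1 to 4 and 10.81, 10.82, 10.87 and 10.78 on siControl-labelled arrays 1 to 4. Every siGATA2 array lay below every siControl array, and the siControl values were the tighter of the groups, at 10.82 ± 0.0403 (SD, n = 4) against 9.69 ± 0.307 (SD, n = 4). SRD5A3 thus had a log2 fold change of -1.13 (SE 0.159, limma adjusted p = 0.00135), which is 2.19-fold lower with a 95% interval of 1.70 to 2.82. The difference was -1.18 within the first slide row and -0.86 within the second. SRD5A3 was called lower under all 23 processing alternatives. The values ran from -1.70 under E1A scaling to -0.87 without the arrays lettered A or B.

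SRD5A1, the 5α-reductase that prevails in advanced prostate cancer, read 8.97, 9.05, 9.94 and 10.03 on siGATA2-labelled arrays 1 to 4 and 9.25, 9.77, 9.63 and 9.76 on siControl-labelled arrays 1 to 4. The first pair of siGATA2 arrays lay below all siControl arrays and the second pair above them, so that the means nearly met at 9.50 ± 0.563 and 9.60 ± 0.242 (SD, n = 4 each). The log2 fold change of -0.10 (SE 0.280, limma adjusted p = 0.811) had a 95% interval of -0.75 to 0.54 and changed sign under 5 of 23 alternatives. With the 3 arrays whose letters are A or B left out, a comparison chosen after seeing the data, SRD5A1 was called higher at 0.26 (limma adjusted p = 0.0472).

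SRD5A2, the 5α-reductase of the normal prostate, was close to background. It was well above background on 3 of 4 arrays labelled siGATA2 and 1 of 4 labelled siControl, at 3.66, 4.16, 4.74 and 4.10 against 2.13, 4.56, 1.96 and 3.99. The siControl arrays with values near 2 were numbers 1 and 3, those with the noisiest negative controls, and without them the log2 fold change went from 1.00 (SE 0.608, limma adjusted p = 0.269, 95% interval -0.40 to 2.41) to -0.11, while E1A scaling gave -0.16. The part of array noise in this difference was not tested.

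The RefSeq promoter table (GRCh38.p14) held the 250 bases before the start of 9 of the 10 genes, and HSD17B6 had no entry. SRD5A3 is shown because it fell and its window held the most motif matches of the 9 genes. Capitals mark, on either strand, a GATA motif (AGATAA or AGATAG or TGATAA or TGATAG), an antioxidant response element (TGACNNNGC) or an E-box (CACGTG). A match is a run of letters, not a shown binding site. The window lies at chr4:55345992-55346241 on the plus strand.

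SRD5A3: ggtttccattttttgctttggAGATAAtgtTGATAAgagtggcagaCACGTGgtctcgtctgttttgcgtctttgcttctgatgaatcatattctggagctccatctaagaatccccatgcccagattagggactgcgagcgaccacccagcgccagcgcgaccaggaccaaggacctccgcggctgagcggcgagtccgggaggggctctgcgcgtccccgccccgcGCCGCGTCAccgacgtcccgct

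Here 2 GATA motifs stood 229 and 220 bases before the start, with an E-box at 204 bases and an antioxidant response element at 22 bases. Of 35116 promoter windows of this length, 22.3% held a GATA motif, 6.34% the E-box and 10.9% the antioxidant response element. Among the enzymes, the windows of SRD5A1, SRD5A2, HSD17B4 and HSD17B10 held none of these motifs.

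The AKR1C enzymes showed a lower mean on the arrays labelled siGATA2 that did not pass the test, and a spread within each group wider than for any called enzyme. AKR1C1 mainly inactivates progesterone, and AKR1C3 makes testosterone from androstenedione. AKR1C1 read 4.51, 5.40, 6.85 and 6.81 on siGATA2-labelled arrays 1 to 4, and 5.64, 7.85, 7.21 and 7.77 on siControl-labelled arrays 1 to 4. The means were 5.89 ± 1.14 and 7.12 ± 1.03 (SD, n = 4 each), and siControl array 1 lay among the siGATA2 values. This gave a log2 fold change of -1.23 (SE 0.675, limma adjusted p = 0.228) with a 95% interval of -2.79 to 0.34. It was -2.18 within the first slide row and -0.09 within the second. With array weights it was called lower at -1.88 (limma adjusted p = 0.0170), and with the letters A and B against the rest as a block it was called lower at -0.75 (limma adjusted p = 0.0395).

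The other AKR1C1 probe behaved much like the first, at 4.58, 5.01, 5.82 and 6.18 on the arrays labelled siGATA2 against 5.12, 6.83, 6.15 and 6.88 on those labelled siControl, where it was well above background on 2 of 4. Its log2 fold change was -0.85 (SE 0.487, limma adjusted p over all probes = 0.242). Taken within each array, the gap between the probes did not differ detectably between groups, by -0.38 (exact two-sided permutation p = 0.257, adjusted 0.257 over 2 pairs of probes).

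AKR1C3 read 5.93, 6.16, 7.68 and 7.85 on siGATA2-labelled arrays 1 to 4 and 6.07, 8.16, 7.28 and 7.96 on siControl-labelled arrays 1 to 4. The lowest 3 of the 8 values were those of siGATA2 arrays 1 and 2 and siControl array 1, whose title letters are A or B. Its log2 fold change was -0.46 (SE 0.606, limma adjusted p = 0.607, 95% interval -1.87 to 0.94), at -1.37 within the first slide row and 0.68 within the second. AKR1C3 averaged 6.04 on the siGATA2 arrays with letters A and B and 7.77 on those with E and F, against 7.80 on the siControl arrays other than B, and SRD5A1 averaged 9.01, 9.98 and 9.72 in the same order. What the letters stand for was not tested.

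AKR1C1, AKR1C2 and AKR1C3 lie side by side on chromosome 10 and are near copies of each other. Their promoter windows are shown for this likeness, with GATA motifs in capitals. They lie at chr10:4963165-4963414 (AKR1C1, plus strand), chr10:5003858-5004107 (AKR1C2, minus strand) and chr10:5048531-5048780 (AKR1C3, plus strand, the first of its 2 windows).

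AKR1C1: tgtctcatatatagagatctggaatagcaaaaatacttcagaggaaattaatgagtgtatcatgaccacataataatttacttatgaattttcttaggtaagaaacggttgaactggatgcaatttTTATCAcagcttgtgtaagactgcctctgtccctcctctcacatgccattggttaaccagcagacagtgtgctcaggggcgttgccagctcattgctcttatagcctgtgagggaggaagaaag
AKR1C2: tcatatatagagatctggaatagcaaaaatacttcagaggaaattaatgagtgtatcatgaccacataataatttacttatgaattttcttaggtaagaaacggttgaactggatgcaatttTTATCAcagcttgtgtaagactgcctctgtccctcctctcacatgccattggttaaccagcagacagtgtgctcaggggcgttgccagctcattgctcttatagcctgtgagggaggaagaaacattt
AKR1C3: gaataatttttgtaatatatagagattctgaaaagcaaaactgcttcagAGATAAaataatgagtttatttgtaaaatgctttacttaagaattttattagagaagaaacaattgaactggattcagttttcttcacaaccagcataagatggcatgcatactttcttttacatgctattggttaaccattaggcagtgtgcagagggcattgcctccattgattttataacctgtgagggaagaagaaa

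The AKR1C1 and AKR1C2 windows shared 245 of 246 aligned bases (99.6%), and those of AKR1C1 and AKR1C3 shared 189 of 239 (79.1%). Each held 1 GATA motif, at 124, 128 and 201 bases before the start, and the second AKR1C3 window held 2. The GC content of the windows shown was 40.8%, 40% and 32%, against a median of 58% over all promoter windows. The share of all windows with a GATA motif was not matched for GC content. How far an array probe for one of these genes also reads RNA of another was not tested, and the values of AKR1C1 and AKR1C3 are uncertain to that extent.

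Of the 17β-hydroxysteroid dehydrogenases, HSD17B6 and HSD17B10 fell and HSD17B4 was not called. HSD17B6 oxidises 3α-androstanediol back to dihydrotestosterone and so can replenish the active androgen. Its signal was 7.02, 6.90, 6.56 and 6.84 on siGATA2-labelled arrays 1 to 4 and 7.47, 8.10, 7.63 and 7.87 on siControl-labelled arrays 1 to 4. No siGATA2 array reached the lowest siControl array, number 1. The means of 6.83 ± 0.194 and 7.77 ± 0.277 (SD, n = 4 each) gave a log2 fold change of -0.94 (SE 0.169, limma adjusted p = 0.00474), 1.91-fold lower with a 95% interval of 1.46 to 2.51. Within the slide rows it was -1.04 and -0.90. It was called lower under 22 of 23 alternatives, and with E1A scaling, where siControl array 1 stood apart, it was -1.37 (limma adjusted p = 0.120).

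HSD17B10 oxidises short branched acyl-CoA and steroids in mitochondria and is a subunit of mitochondrial RNase P, which trims tRNA. It read 14.80, 14.76, 14.94 and 15.02 on siGATA2-labelled arrays 1 to 4 against 15.48, 15.71, 15.61 and 15.64 on siControl-labelled arrays 1 to 4. The groups were apart, at 14.88 ± 0.124 and 15.61 ± 0.0953 (SD, n = 4 each). A log2 fold change of -0.73 (SE 0.107, limma adjusted p = 0.00167) equals a level 1.66-fold lower, with a 95% interval of 1.40 to 1.97. It was -0.80 and -0.58 within the slide rows, and -1.46 with E1A scaling, where it was not called (limma adjusted p = 0.0743). Neither of its 2 promoter windows held any of the motifs.

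HSD17B4, the multifunctional enzyme of peroxisomal β-oxidation that also inactivates estradiol, read 13.62, 13.56, 13.77 and 13.72 on siGATA2-labelled arrays 1 to 4 and 13.32, 13.79, 13.55 and 13.78 on siControl-labelled arrays 1 to 4. The groups lay within each other, and the log2 fold change was 0.06 (SE 0.135, limma adjusted p = 0.781) with a 95% interval of -0.25 to 0.37, and its sign turned under 5 of 23 alternatives, scaling to the 75th percentile (-0.05) among them.

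CYP3A5 rose the most of the 9 enzymes. It is a CYP3A form found also outside the liver, prostate included, and hydroxylates testosterone. Before normalization its processed signal was 256, 323, 210 and 193 intensity units on siGATA2-labelled arrays 1 to 4 and 37.5, 49.2, 21.4 and 41.0 on siControl-labelled arrays 1 to 4. After normalization these were 7.83, 8.13, 7.73 and 7.64 against 5.74, 5.43, 4.96 and 5.32 on the log2 scale. The gap of nearly 2 log2 units between the lowest siGATA2 array and the highest siControl array was wider than the range of either group. Means of 7.83 ± 0.214 and 5.36 ± 0.323 (SD, n = 4 each) gave a log2 fold change of 2.47 (SE 0.188, limma adjusted p = 7.48e-05), 5.53-fold higher with a 95% interval of 4.09 to 7.48. It was 2.58 and 2.26 within the slide rows, and 2.39 and 2.68 between the arrays that share the letter B or F. The probe was well above background on all 4 arrays labelled siGATA2 and on 3 of 4 labelled siControl. It was called higher under all 23 alternatives, from 1.42 after normexp background correction, whose offset shrinks changes of dim probes, to 2.72 with 75th percentile scaling.

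The second CYP3A5 probe is annotated to a different RefSeq transcript of the gene and was dim, being well above background on 4 of 4 arrays labelled siGATA2 and 2 of 4 labelled siControl. It read 4.35, 4.69, 4.95 and 5.28 against 4.18, 4.46, 1.86 and 4.80, with siControl array 3 far below the other 7. Its log2 fold change was 1.00 (SE 0.611, limma adjusted p over all probes = 0.272), with a 95% interval of -0.42 to 2.41. Within each array the first probe exceeded the second by 3.01 on average on the arrays labelled siGATA2 and by 1.54 on those labelled siControl. This difference of 1.47 gave an exact two-sided permutation p of 0.0857 (adjusted 0.171 over 2 pairs), where 0.0286 is the smallest p that 4 against 4 arrays allow. After normexp background correction it was 1.32 (exact permutation p = 0.0286, adjusted 0.0571).

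**Figure D2:**
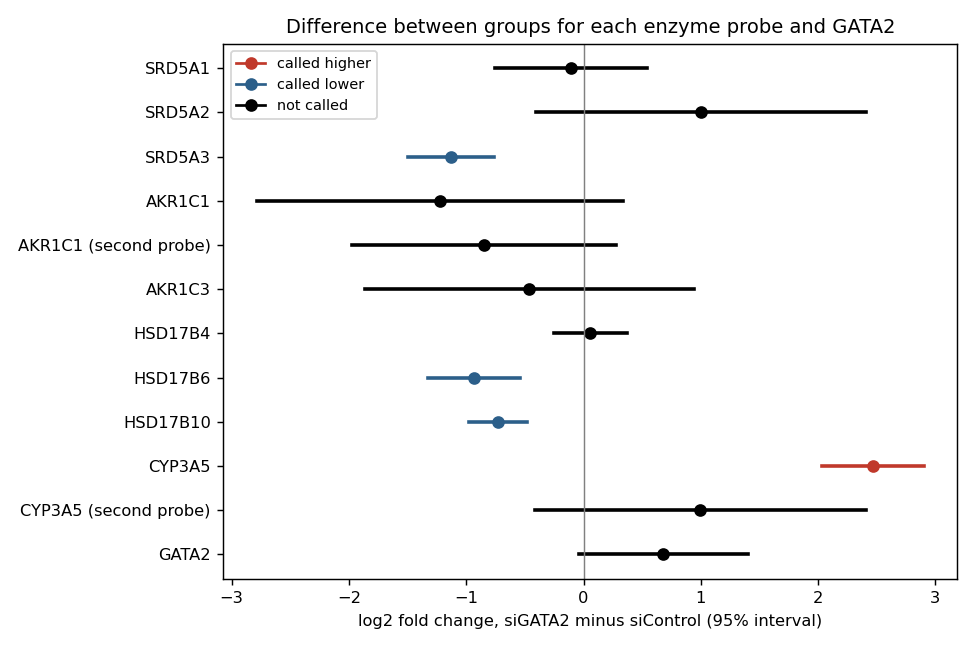
The log2 fold change of each enzyme probe and of GATA2 (siGATA2 minus siControl, x axis) with its 95% interval from limma. The 3 lower and 1 higher genes that were called are coloured, and the second CYP3A5 probe at 1.00 has an interval that includes 0 while the first, at 2.47, has not.

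The CYP3A5 promoter window, shown for the gene with the greatest rise, lies at chr7:99679997-99680246 on the minus strand. Capitals mark a GATA motif.

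CYP3A5: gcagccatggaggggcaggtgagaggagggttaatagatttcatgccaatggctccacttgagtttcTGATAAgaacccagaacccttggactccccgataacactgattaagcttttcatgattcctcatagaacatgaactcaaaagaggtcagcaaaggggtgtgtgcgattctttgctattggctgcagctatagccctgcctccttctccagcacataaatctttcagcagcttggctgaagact

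This single GATA motif stood 183 bases before the start, and the window held neither the antioxidant response element nor the E-box. Its GC content of 47.6% was also below the median of all windows.

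The genes beside the enzymes in RefSeq gene order were read too, with 2 genes tested on either side. CYP3A7, the fetal CYP3A form next to CYP3A5, was called higher at 1.30 (SE 0.143, limma adjusted p = 0.000392), with 7.56, 7.75, 7.39 and 7.83 on the arrays labelled siGATA2 against 6.60, 6.24, 6.22 and 6.25 on those labelled siControl. These groups did not overlap either. CYP3A4, the main CYP3A form of adult liver, was not called, at 0.37 (SE 0.539, limma adjusted p = 0.642). Nor were ZSCAN25 and ZNF655 on the other side (limma adjusted p = 0.531 and 0.478). CYP3A43, a family member not among these neighbours, was not called either, at -0.24 (limma adjusted p = 0.522). How far a CYP3A probe reads RNA of its relatives was not tested. None of the 4 genes around SRD5A3 was called, of which KIT and KDR were well above background on 2 and 3 of the 8 arrays. Lower neighbours were PRIM1 beside HSD17B6 (-1.43), NSUN2 beside SRD5A1 (-0.78), TNFAIP8 beside HSD17B4 (-1.18) and SMC1A near HSD17B10 (-0.58). DMXL1 near HSD17B4 was higher (adjusted p = 0.000217), as were KLF6 (1.15) and AKR1E2 near AKR1C1.

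**Figure D3:**
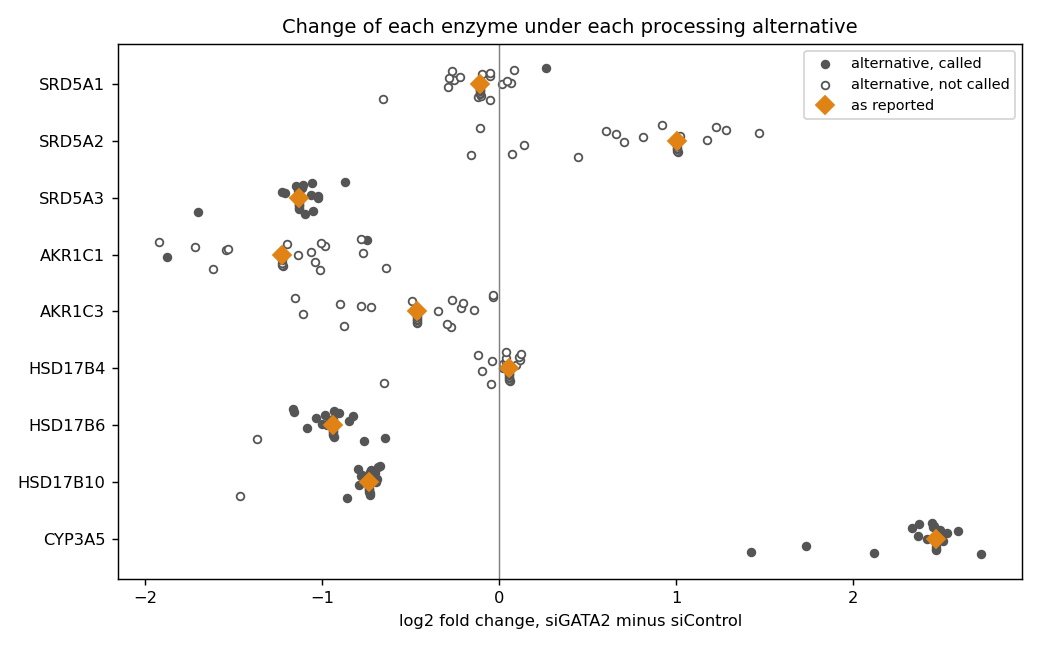
The log2 fold change of each enzyme (siGATA2 minus siControl, x axis) as reported (diamonds) and under each processing alternative (circles, filled where the gene was called). CYP3A5 and SRD5A3 stayed called in every alternative shown, HSD17B6 and HSD17B10 in 22 of 23 each, and SRD5A1, SRD5A2 and HSD17B4 lay on both sides of 0.

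Other genes of the steroid and neighbouring pathways were counted by list. Over the union of these lists 37 of 174 tested genes were called lower and 29 higher (background 14.2% and 12.3% of all genes), and their median log2 fold change was 0.01, where that of all genes was 0.09. The calls thus went both ways. The leading genes of each list are given, some of them with limma's adjusted p.

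In steroid synthesis from cholesterol, 4 of 14 genes were lower and 1 higher (median -0.25). FDXR, the reductase that feeds electrons to the mitochondrial steroidogenic P450s, fell by 1.51 (SE 0.0922, adjusted p = 2.93e-05). CYB5A, which stimulates the lyase step of androgen synthesis, fell by 0.78, and TSPO, an outer mitochondrial membrane protein, fell by 0.37. HSD3B1 was well above background on none of the arrays labelled siGATA2 and 1 of those labelled siControl. It was called lower (adjusted p = 0.00492) but, this close to background in both groups, has no fold. It lies outside the rule for naming genes and completes the count. CYP21A2, the adrenal 21-hydroxylase, was higher by 0.66, and CYP17A1, which makes androgens from pregnenolone derivatives, stood at 0.07 (SE 0.120, adjusted p = 0.717).

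Of 18 other hydroxysteroid dehydrogenases and carbonyl reductases, 6 were lower and 4 higher (median -0.30). The lower ones were led by HSD17B2, which oxidises testosterone and estradiol to less active forms, at -2.16 (SE 0.214, adjusted p = 0.000237), with 4.15 to 4.47 on the arrays labelled siGATA2 against 5.83 to 6.81 on those labelled siControl. HSD17B11, an enzyme of lipid droplets, was at -1.60, and HSD11B2, which inactivates cortisol, was at -1.27. The higher ones were led by HSD17B14 at 1.57, HSD17B1, which makes estradiol from estrone, at 1.12, and HSD17B8 at 0.84.

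Of 11 genes of steroid sulfation, desulfation and uptake, none was lower and 3 were higher (median 0.38). SUMF1, which activates sulfatases, and its paralog SUMF2 were higher by 0.66 and 0.38. PAPSS2, which makes the sulfate donor, cleared background on 4 arrays labelled siGATA2 and on none labelled siControl, and has no fold. Its groups overlapped, and its call was close to the threshold (limma adjusted p = 0.0496). The lowest signal well above background was 5.32 and 6.48 on siControl arrays 1 and 3, against at most 3.83 on the other arrays. This limits what the count of arrays shows.

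Of 9 other aldo-keto reductases 1 was lower and 2 were higher (median 0.50). AKR1A1, a general aldehyde reductase, fell by 1.07, and AKR7A2 was higher by 0.66. AKR1E2, outside the naming rule, was well above background on 3 arrays labelled siGATA2 and none labelled siControl. The higher signal needed on siControl arrays 1 and 3 limits this count too. AKR1B10, chosen for mention after its values were seen, read at most 6.25 on siGATA2 arrays 1 and 2 and 8.11 and 8.29 on siGATA2 arrays 3 and 4, the split seen for AKR1C3, against 5.62 to 6.42 on the arrays labelled siControl.

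Of 26 other genes of CYP families 1 to 4, 5 were lower and 3 higher (median -0.06). CYP2J2, which makes epoxides from arachidonic acid, was at -1.87 (SE 0.110, adjusted p = 2.63e-05), CYP1B1, which hydroxylates estradiol, at -1.21, and CYP4F11 at -1.10. Outside the naming rule, CYP4X1 was called lower. It was well above background on none of the arrays labelled siGATA2 and 2 labelled siControl, and has no fold. CYP4F3 was higher by 2.16, CYP1A1, the main target of the aryl hydrocarbon receptor, by 1.68 and CYP3A7 by 1.30, all of them less than the 2.47 of CYP3A5. On the arrays labelled siControl, CYP4F3 was well above background on only 2 and CYP3A7 on 3, so the size of these rises is uncertain.

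Of 20 steroid and xenobiotic receptors 3 were lower and 1 higher (median 0.09). The vitamin D receptor VDR was at -1.62 (SE 0.0907, adjusted p = 2.32e-05). PGR and HNF4A, outside the naming rule, were called too. The progesterone receptor PGR was at -1.24, though well above background on only 3 arrays labelled siGATA2 and 2 labelled siControl. HNF4A did not clear the background criterion on any of the arrays.

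Of 25 genes of the NRF2 antioxidant pathway, to which AKR1C1 and AKR1C3 are often counted, 8 were lower and 2 higher (median -0.17). The ferritin light chain FTL was at -1.95, the cystine transporter SLC7A11 at -1.61 and thioredoxin TXN at -1.02. EPHX1, an epoxide hydrolase, was higher by 1.04, and the exporter ABCC3 was at least 2.50-fold higher, being well above background on no array labelled siControl.

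Of 22 genes of the dolichol pathway, in which SRD5A3 acts, 5 were lower and 4 higher (median 0.00). Among the lower ones were ALG2 at -0.79 and DPAGT1 at -0.77, and the higher ones were led by ALG14 at 1.04, MPDU1 at 0.76 and ALG11 at 0.63. None of the lower ones fell as far as SRD5A3 at -1.13.

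Of 20 genes of peroxisomal oxidation, the pathway of HSD17B4, 3 were lower and 7 higher (median 0.35). AMACR, the racemase used as a marker of prostate cancer, was at -1.50 and ECI2 at -0.57. ACAA1, the thiolase that acts just after HSD17B4, was higher by 1.31, and the oxidases ACOX2 by 1.00 and ACOX3 by 0.98.

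Of 11 genes of mitochondrial RNase P and isoleucine breakdown, the roles of HSD17B10, 2 were lower and 2 higher (median 0.12). TRMT10C, its partner in RNase P, was at -0.62 (SE 0.170, adjusted p = 0.0304), while PRORP, the nuclease subunit of RNase P, named after its value was seen, was not called at -0.01 (adjusted p = 0.968). BCAT2, the mitochondrial branched-chain aminotransferase, was at -1.36. BCKDHA was higher by 1.43 and ACADSB by 0.64.

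**Figure D4:**
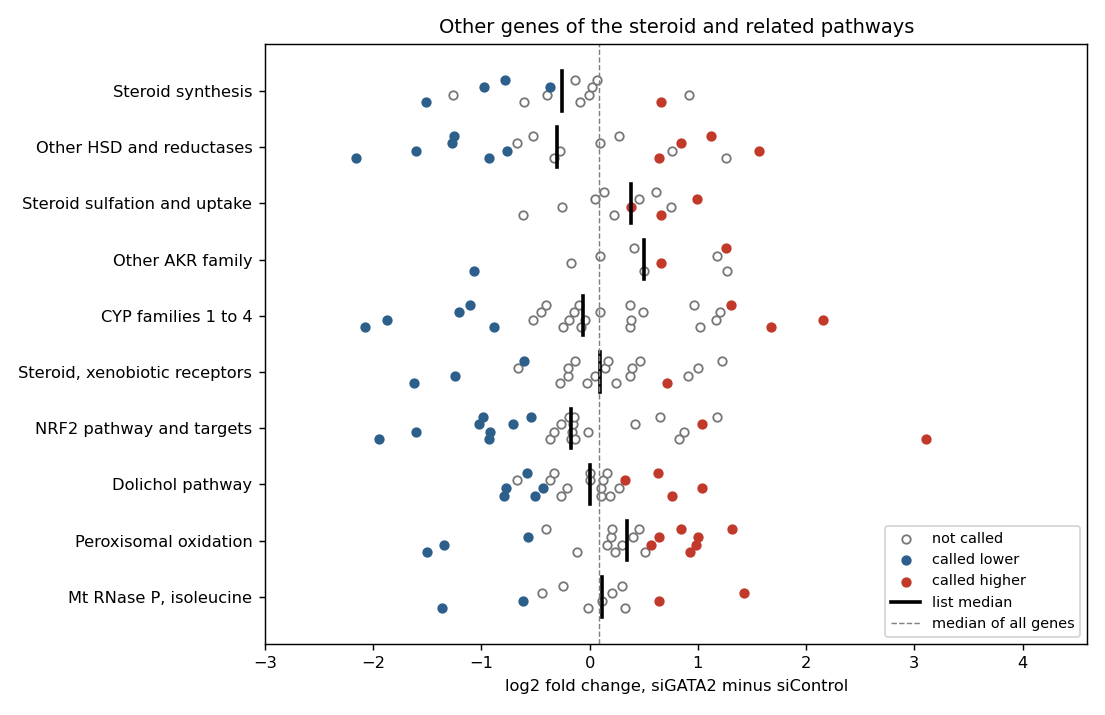
The log2 fold change (siGATA2 minus siControl, x axis) of each tested gene in 10 pathway lists, blue where called lower, red where called higher and open where not called, with the list median as a black bar and the median of all genes (0.09) as a dashed line. The medians run from -0.30 to 0.50, and every list but the one for sulfation and uptake holds calls in both directions.

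Several of these enzymes are liver genes, and markers of liver and other cell types were read beside them. Of 5 tested hepatocyte markers ALB and TTR were called lower, SERPINA1 higher, and APOA2 and CYP2E1 were not called, with a mean level of 5.51 to 5.77 on the arrays labelled siGATA2 and 6.12 to 7.26 on those labelled siControl. Of 5 tested basal markers DST was higher and KRT14, KRT15, NGFR and TP63 were not called (mean level 5.58 to 6.03 against 5.40 to 5.91). Of 4 tested fibroblast markers PDGFRB was lower and COL1A1, COL1A2 and DCN were not called (4.83 to 5.44 against 5.98 to 6.16). Of 4 tested leukocyte markers PTPRC was higher while CD3E and CD14 were among those not called (7.22 to 7.45 against 6.82 to 7.18). Of 4 tested endothelial markers VWF was lower and CDH5, KDR and PECAM1 were not called (5.99 to 6.45 against 6.36 to 6.51). The markers KRT5, COL3A1, LUM and CYP8B1 fell to the filter on dim probes. Well above background on all 8 arrays were 2 hepatocyte, 1 basal, 1 fibroblast, 2 leukocyte and 2 endothelial markers. The part of these genes in the enzyme results was not tested.

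Over the 8 arrays, which share 2 groups that set much of any likeness, the pattern of CYP3A5 was most like those of SLC9A7 (r = 0.998), DOK7, ATXN2, CYB561D2 and MRC2 (r = 0.996) among 16380 genes. Of these MRC2 was at 3.36 and DOK7 at 2.06, and all 5 were called higher. The pattern of HSD17B6 was most like those of SOX8 (r = 0.994), LTN1, KHSRP, MFSD2A and CRLF3 (r = 0.982), all called lower. The pattern of AKR1C3 was most like those of YRDC (r = 0.996), BCL11A, CUTC, INO80C and MTMR12 (r = 0.991), none of them called. A gene this close to an enzyme shares its group difference by construction, so these calls add nothing to those of the enzymes. Among the enzymes themselves AKR1C3 went with AKR1C1 (r = 0.936) and SRD5A1 (r = 0.930), the genes with low values on the arrays lettered A or B, and CYP3A5 ran opposite to HSD17B10 (r = -0.980) and SRD5A3 (r = -0.958). These correlations describe 8 arrays and were not tested.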

How the data were processed

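LNCaP arrays were grouped by the sample labels, 4 siGATA2 and 4 siControl. Per the deposited files, the authors' values are spot intensity from Agilent Feature Extraction 11.0.1.1, of which the background-corrected processed signal was used, and a deposited matrix of log2 values already quantile-normalized, an alternative here. The array design in the file headers differs from the one in the study's methods.

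Log2 processed signals were averaged over unflagged spots and then quantile-normalized between arrays (limma 3.58.1, R 4.3.3). Unannotated probes and probes with a mean under 3 were removed, and the probe with the highest mean stood for a gene. Accessions were named through RefSeq (GRCh38.p14), and no array coordinates are given. lmFit and eBayes with Benjamini-Hochberg adjustment over all genes or all probes compared the groups. The methods' t-test was an alternative. A fold against a group with no array well above background is a bound set by the lowest normalized signal of probes that are. Such a bound is given only where the other group cleared background on every array. The fit was tested on simulated data. Arrays have no read depth, and precision is limited by 4 per group. Within-array probe differences used exact permutation tests.

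The enzymes and lists were chosen with earlier results of these data known. Genes named from a list are the called ones with the 3 largest falls and rises that cleared background throughout at least 1 group, and all genes of marker lists of 6 or fewer. Some genes this rule names are not reported here, though the counts include them. Alternatives were other scalings, background corrections, filters, tests, blocks, weights and left-out arrays. Slide could not be a block, as all arrays lay on 1 slide. Promoter windows were aligned globally with Biopython.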

Additional observations from a re-analysis of the deposited data

How the results depend on the processing

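Each enzyme's change was recomputed under 23 alternatives (22 for SRD5A2, which a stricter filter removed). CYP3A5, SRD5A3 and AKR1C3 kept their direction and their side of the threshold in all of them. With E1A scaling HSD17B6 (-1.37) and HSD17B10 (-1.46) were no longer called, which left 1 enzyme called lower, and SRD5A2 (-0.16) and HSD17B4 (-0.65) changed sign. The other sign changes were of genes not called: HSD17B4 under 75th percentile scaling (-0.0459), array weights (-0.0970) and without siControl arrays 1 and 3 (-0.12), SRD5A2 without those arrays (-0.11), and SRD5A1 with a slide row block (0.0199) or a title letter block (0.0845). Without the arrays lettered A or B, SRD5A1 was called higher (0.26), so that 2 enzymes were. Leaving out 1 array at a time gave -0.281 to 0.0699 for SRD5A1, with a positive sign without siGATA2 array 1 or 2, and -0.0396 to 0.119 for HSD17B4, with a negative sign without siControl array 1. Of the enzymes not called, 3 more moved by over 1.5 times when 1 array was left out, with the same sign and no call gained: AKR1C3 to between -0.14 (without siGATA2 array 1) and -0.90 (without siControl array 1), AKR1C1 to -0.77 (without siGATA2 array 1), and SRD5A2 to 0.66 and 0.61 (without siControl array 1 or 3). AKR1C1 and GATA2 gained a call with array weights (-1.88 and 0.79) and with the title letter block (-0.75 and 0.47). The cause was not tested.

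Counts over all genes moved from 4086 to 1901 lower with E1A scaling, and from 3558 higher to 138 with E1A scaling, 5794 with array weights, 2184 with the slide row block, 7198 with the title letter block and 6890 without the arrays lettered A or B. The other pathway genes went from 37 to 17 lower and from 29 to 2 higher with E1A scaling, and to 55 and 52 higher with the title letter block and without those arrays. The title letter alternatives were chosen after seeing the data. The within-array probe differences ranged over 1.13 to 1.99 for CYP3A5 and -0.56 to -0.19 for AKR1C1, with too few arrays for their adjusted permutation p to say anything of stability.

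Arrays with the same replicate number did not deviate together in every pair (correlations of 0.54, -0.31, 0.17 and 0.22), so the numbers were not taken as pairs. With the replicate block CYP3A5 was at 2.47 (adjusted p = 0.00191), 3 enzymes were called lower and 1 higher, and no enzyme changed its call. Signal over background limits SRD5A2 and the second CYP3A5 probe.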
